A study of Mus musculus with 12 samples.

Results

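The genes described here encode the initiation and elongation factors of protein synthesis, with the kinases, binding proteins and methyltransferases that carry the same family symbols. They were taken as every gene whose symbol begins with Eif or Eef in both deposited count tables, without symbols that mark pseudogenes, and numbered 68 of the 21976 genes in both tables. A further 2 genes with such symbols, Eif4a3l2 and Eef1akmt3, were in the table of HFD and Chow alone, and 5 pseudogene symbols were dropped. Transcript levels came from RNA sequencing of 12 skeletal muscle libraries from C57BL/6N mice, which fall into 4 groups of 3. Feeding began at 6 weeks of age and lasted 18 weeks in every group. The PCN group ate a high-fat diet and received 50 mg/kg of PCN by intraperitoneal injection once a day for 4 days. PCN, pregnenolone carbonitrile, is a synthetic steroid that activates the rodent pregnane X receptor. The Vehicle group ate the same high-fat diet and received corn oil with 30% DMSO by the same route and schedule. The HFD group ate the high-fat diet without injection, and the Chow group ate regular chow without injection. The sources used here do not name the muscle that was taken.

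Initiation begins when eIF2 brings the initiator tRNA to the small ribosomal subunit, while eIF3 organises that subunit and eIF4F, built from the cap-binding protein eIF4E, the scaffold eIF4G and the helicase eIF4A, recruits the mRNA. The 4E-binding proteins hold eIF4E away from eIF4G until the kinase mTORC1 phosphorylates them, and the eIF2 alpha kinases slow initiation by blocking eIF2B, which reloads eIF2 with GTP. During elongation eEF1A delivers aminoacyl-tRNA, the eEF1B subunits recharge eEF1A, and eEF2 moves the ribosome along the mRNA. Muscle is known for its use of eEF1A2, an isoform of adult muscle and neurons.

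The 4E-binding protein genes had the lowest p-values of all members between Vehicle and HFD, so the coding sequence around the motif with which they bind eIF4E is shown for both genes, in capitals where they differ. The stretches span coding bases 142 to 192 of Eif4ebp1 and 145 to 195 of Eif4ebp2, counted from the A of the start codon in the GENCODE M21 transcripts, and 13 of the 51 bases differ.
Eif4ebp1: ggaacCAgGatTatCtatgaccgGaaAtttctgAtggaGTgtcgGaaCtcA
Eif4ebp2: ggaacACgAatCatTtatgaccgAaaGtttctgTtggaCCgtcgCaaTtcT
Over the whole coding sequences, 62.8% of aligned bases were identical and the longest identical run was 14 bases. The elongation factor genes Eef1a1 and Eef1a2 were 80.0% identical over their coding sequences, with a longest identical run of 23 bases.

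Promoter windows, 250 bases before to 50 bases after a start site in RefSeq on GRCm38.p6, were held for 54 of the 68 genes, with 69 windows in all. They are shown for Eef1b2 and Eif4ebp2, which passed the test between Vehicle and HFD in opposite directions, and for Eef2, the most abundant member by counts. Capitals mark exact matches, on either strand, to 4 motifs. The letters CCGGAAG are bound by ETS factors, and CACGTG is the form of the E-box known for factors such as Myc. The core of the cyclic AMP response element is TGACGT, and the box near which many tissue-restricted genes start is searched as TATAAA. In Eef2 the TGACGT matches on the 2 strands overlap, and the Eef1b2 window is chr1:63176581-63176880 (plus strand), the Eif4ebp2 window chr10:61452620-61452919 (minus strand) and the Eef2 window chr10:81176381-81176680 (plus strand).
Eef1b2: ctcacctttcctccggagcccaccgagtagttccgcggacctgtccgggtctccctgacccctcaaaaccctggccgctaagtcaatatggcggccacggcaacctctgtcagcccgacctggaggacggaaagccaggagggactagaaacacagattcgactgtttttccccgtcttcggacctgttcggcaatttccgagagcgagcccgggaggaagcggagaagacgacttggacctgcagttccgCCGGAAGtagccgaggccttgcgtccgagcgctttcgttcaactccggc
Eif4ebp2: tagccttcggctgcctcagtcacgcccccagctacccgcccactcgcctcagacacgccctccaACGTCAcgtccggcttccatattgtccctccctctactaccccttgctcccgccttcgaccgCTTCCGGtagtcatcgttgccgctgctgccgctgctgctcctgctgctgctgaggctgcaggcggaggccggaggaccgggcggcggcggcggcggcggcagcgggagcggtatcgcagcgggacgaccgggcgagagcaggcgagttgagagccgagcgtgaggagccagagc
Eef2: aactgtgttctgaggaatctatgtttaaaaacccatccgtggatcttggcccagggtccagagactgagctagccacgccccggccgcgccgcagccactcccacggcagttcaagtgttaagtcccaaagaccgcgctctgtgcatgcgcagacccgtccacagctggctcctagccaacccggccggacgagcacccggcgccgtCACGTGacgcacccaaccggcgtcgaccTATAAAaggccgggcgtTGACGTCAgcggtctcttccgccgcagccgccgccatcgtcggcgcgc
CCGGAAG was in 29.0% of the members' windows, against 8.86% of all 32851 windows in the table. CACGTG was in 23.2% of the members' windows and 7.15% of all windows, and TGACGT in 17.4% and 7.51%. TATAAA was in 7.25% of the members' windows and 13.6% of all windows. The motifs were chosen with these sequences in view, and windows of 1 gene can overlap.

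The shallowest library held 12770308 counts (Chow 8) and the deepest 19739226 (PCN 27). The 10 fast-fibre genes checked in all libraries, such as Ckm and Acta1, summed to 99162 to 186178 CPM, so defining genes of the labelled tissue were abundant. CPM are counts scaled to a common library size, here with TMM factors over the 12 libraries. Slow-fibre genes did not stand alike in the libraries. In the table of HFD and Chow, 9 of 10 listed slow-fibre genes summed to 53.1 to 92.8 CPM in HFD and to 66.5 (Chow 8), 749 (Chow 17) and 790.2 (Chow 19) CPM in Chow, without TMM. The table of PCN and Vehicle holds only 3 of the 10. They summed to 154 CPM in PCN 5, 22.1 in PCN 11 and 19.6 in PCN 27, against 16.8 to 72.0 in Vehicle. The sums of 9 and of 3 genes cannot be compared with each other. The 3 genes alone, with TMM, summed to 17.9 to 141 CPM in PCN and 16.6 to 68.8 in Vehicle. Their sums were 21.2 to 40.6 CPM in HFD and 29.2 to 119 in Chow. The highest were those of PCN 5 (141 CPM), Chow 17 (119 CPM) and Chow 19 (115 CPM), then Vehicle 55 (68.8 CPM). In these bulk samples, fewer cells of a type and less RNA per cell cannot be told apart. Nothing in the labels says that the libraries of a group came from separate mice, and the p-values measure only the spread between these libraries.

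The 68 genes covered a wide range of abundance, with 12-library means from 0.188 to 1248 CPM, 13 genes above 100 CPM and 3 below 1 CPM. Their sum per library was 7678 to 9035 CPM in PCN, 7015 to 7769 in Vehicle, 6350 to 7441 in HFD and 7047 to 7288 in Chow. PCN 27 held the highest sum and HFD 38 the lowest.

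Divided by exon length, elongation factors led. Eef1a2 (chr2:181147653-181157014, GRCm38) averaged 508 CPM per kilobase of exon over the 12 libraries, followed by Eef2 at 376. The scaffold gene Eif4g1 had 90.9 CPM per kilobase, the eEF1B gamma subunit gene Eef1g 88.0, the helicase cofactor gene Eif4b 83.8, Eef1a1 83.2 and Eif5a, whose hypusine-bearing product helps form difficult peptide bonds, 63.1. At the low end stood Eif5a2 at 0.249, the third 4E-binding protein gene Eif4ebp3 at 0.252 and the methyltransferase gene Eef1akmt4 at 0.253 CPM per kilobase. Eif4ebp3 and Eef1akmt4 share 67.3% and 30.7% of their exon length with another gene on the same strand, so their counts are uncertain.

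Eef1a2 was the major eEF1A gene in every library. It took 81.7 ± 5.19% of the counts of Eef1a1 plus Eef1a2 in PCN, 84.0 ± 0.512% in Vehicle, 84.8 ± 4.80% in HFD and 83.9 ± 3.29% in Chow (SD, n = 3 each). Its lowest shares were 75.7% in PCN 5 and 79.3% in HFD 38, and the groups overlapped. Among the helicase genes, Eif4a1 took 20.8 ± 0.716% of the Eif4a1 plus Eif4a2 counts in PCN, 20.5 ± 1.39% in Vehicle, 20.8 ± 0.0995% in HFD and 21.4 ± 2.31% in Chow. Reads of Eef2 and of the Eif4a genes may be shared with pseudogenes, since Eef2-ps2 and Eif4a-ps4 are among the dropped symbols. The Y-linked copy of the eIF2 gamma gene, Eif2s3y, took 39.2% to 58.1% of the counts it shares with Eif2s3x, with overlapping groups.

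**Figure D1:**
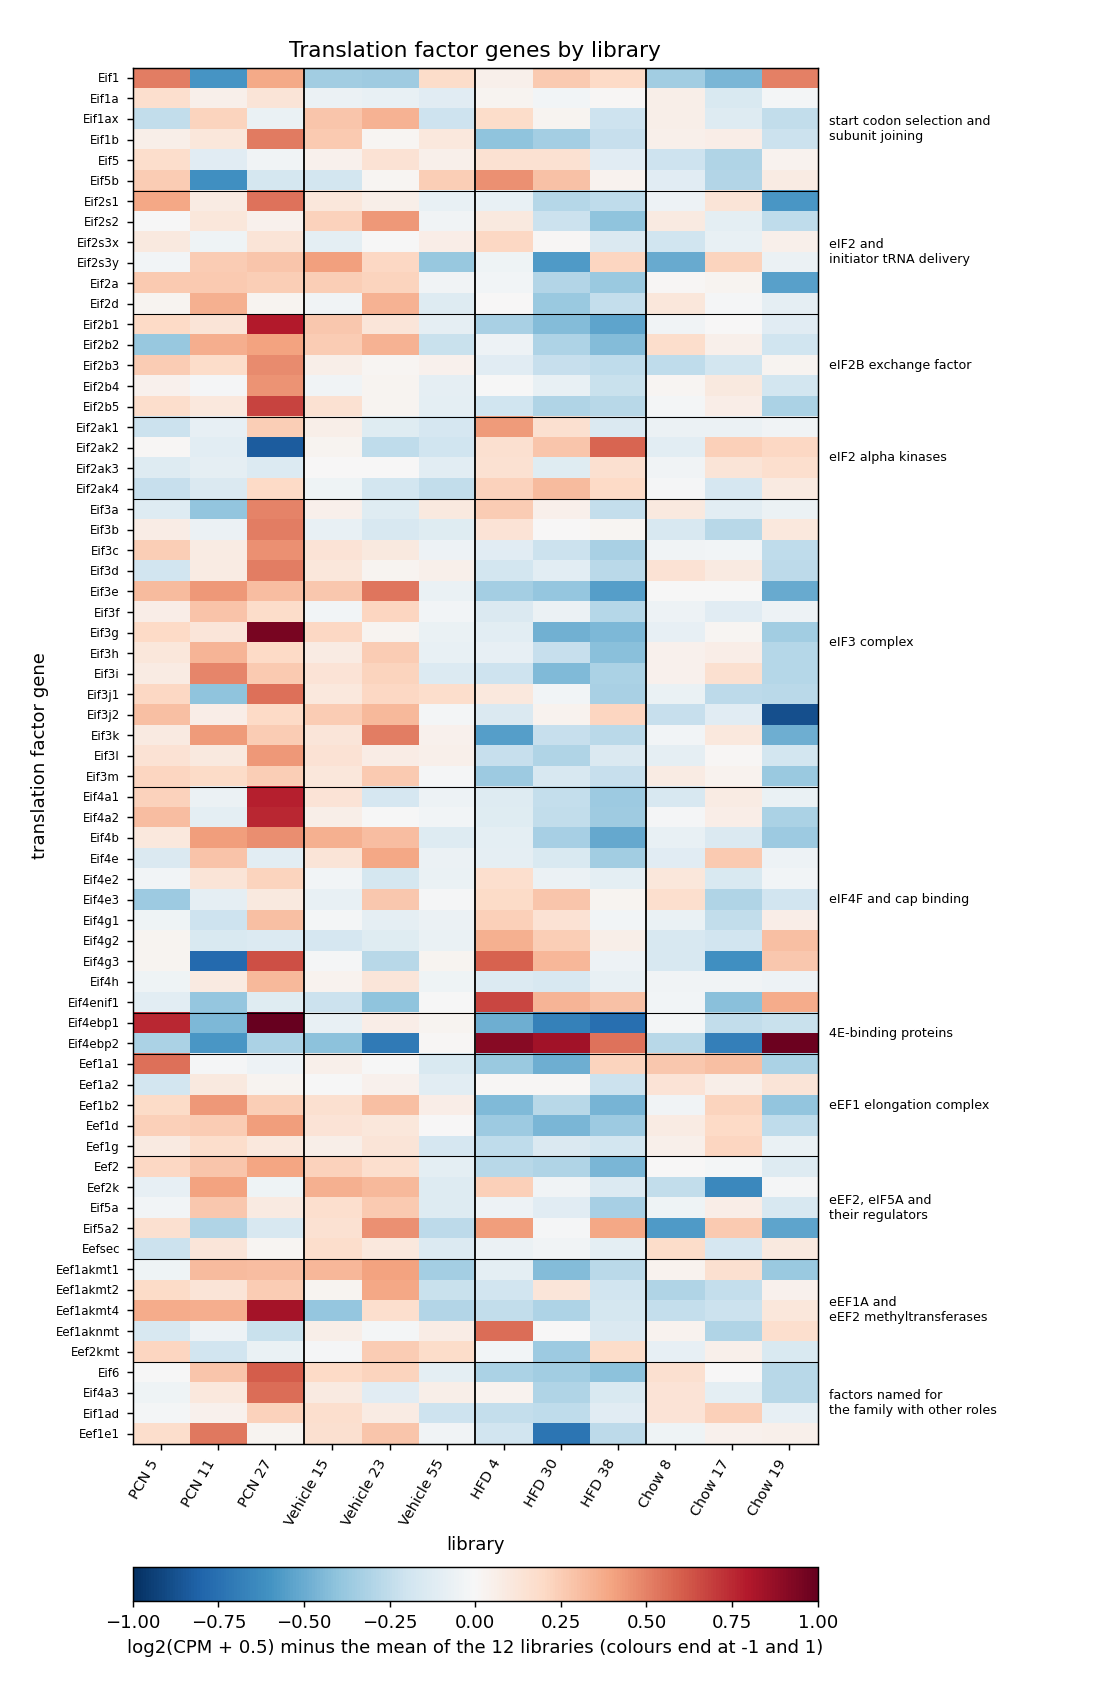
Level of 67 translation factor genes (rows, grouped by role) in each of the 12 libraries (columns), as log2(CPM + 0.5) minus the gene's mean over the libraries, in red above and blue below that mean. Eif4ebp3 is left out for its low level. PCN 27 is red over most rows (median deviation 0.25) and HFD 38 is blue over most rows (median deviation -0.22).

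Over the 4 groups, HFD had the lowest mean and PCN the highest mean for most of these genes. The HFD mean was the lowest of the 4 in 41 of 67 tested members (61.2%), against 30.9% of all 13375 genes. The PCN mean was the highest in 45 members (67.2%), against 31.4% of all genes. The median member deviated from its 12-library mean by 0.080 to 0.25 on the log2 scale in the PCN libraries, by -0.064 to 0.10 in Vehicle, by -0.22 to -0.062 in HFD and by -0.12 to -0.015 in Chow. PCN 27 and HFD 38 lay at the ends, and Vehicle 55 was the lowest Vehicle library. PCN 5 (0.080) and PCN 11 (0.0995) lay close to Vehicle 15 (0.091) and Vehicle 23 (0.103), while PCN 27 was at 0.25. The group means were not ranked again without PCN 27. A test of any difference among the 4 groups (edgeR, Benjamini-Hochberg adjusted p under 0.05) called 0 of 67 members and 0.179% of all genes. At an unadjusted p under 0.05 it held 26 members (38.8%), against 15.5% of all genes, and without HFD 30 it held 15 (22.4%), against 11.1%. Eef1akmt4 is among those 26 members and the 45 above, but it passed the expression filter only through its PCN libraries. Its place there is no evidence of a difference. The lowest adjusted p belonged to Eif3e (0.101 by edgeR), then to Eef1d, Eif2b1, Eef1b2, Eif3g and Eif4b. DESeq2's likelihood-ratio test called 10 of the 66 members to which it gave an adjusted p (15.2%), and 771 of 11749 such genes (6.56%).

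The comparison of Vehicle with HFD asks what the injections themselves accompany on the high-fat diet. DMSO, corn oil, the injections and any other difference in handling cannot be told apart in it, and its libraries lie in different tables, joined here on the shared genes. Of 66 members tested, 2 rose and 1 fell (edgeR, Benjamini-Hochberg adjusted p under 0.05), which is 4.55%, against 1.51% of the 12746 genes tested (0.526% higher and 0.989% lower). The genes that rose were Eif4ebp1 and Eef1b2, and the gene that fell was Eif4ebp2. Far more members leaned one way without passing, since 47 of 66 had a higher fitted level in Vehicle (49.9% of all genes did), and the median log2 fold change was 0.22 over members and -0.0014 over all genes. The lean was uneven over the libraries. The median member deviated from its 12-library mean by 0.091 in Vehicle 15, 0.10 in Vehicle 23 and -0.064 in Vehicle 55. In HFD 4, HFD 30 and HFD 38 it deviated by -0.062, -0.16 and -0.22, so Vehicle 55 did not lie above HFD 4.

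The 4E-binding protein genes moved in opposite directions. Eif4ebp2 (chr10:61428491-61452661, minus strand), whose product represses cap-dependent initiation by holding eIF4E, had 58.3, 47.4 and 78.0 CPM in Vehicle, against 146, 139 and 113 CPM in HFD. Every Vehicle library lay below every HFD library, and the log2 fold change was -1.12 ± 0.19 (SE; edgeR, adjusted p = 0.0344). Eif4ebp1 (chr8:27260329-27276674, plus strand), the best-studied target of mTORC1 among translation repressors, had 52.4, 57.7 and 56.2 CPM in Vehicle, against 39.2, 34.4 and 32.4 CPM in HFD. Its groups did not overlap either, and the log2 fold change was 0.65 ± 0.12 (edgeR, adjusted p = 0.0416). Both calls were lost in 6 of 10 alternatives, which were all 12 libraries in 1 fit and leaving out any 1 of Vehicle 15, Vehicle 23, HFD 4, HFD 30 and HFD 38, and their adjusted p then reached 0.246 for Eif4ebp2 and 0.601 for Eif4ebp1. Eif4ebp3 was too low to test, with 2 to 4 counts in Vehicle and 1 to 2 in HFD.

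Within each library, Eif4ebp1 took 48.0 ± 6.54% of the counts of Eif4ebp1 plus Eif4ebp2 in Vehicle and 21.1 ± 1.27% in HFD (SD, n = 3 each). The HFD libraries lay between 19.8% and 22.3%, below all Vehicle libraries, which lay between 41.9% and 54.9%. In PCN the share was 61.0 ± 17.6% and in Chow 39.5 ± 14.0%. One Chow library stood with the HFD libraries at 23.5% (Chow 19), while Chow 8 and Chow 17 were at 46.0% and 49.1%. Per kilobase of exon the share was 70.7 ± 5.38% in Vehicle and 41.3 ± 1.85% in HFD.

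**Figure D2:**
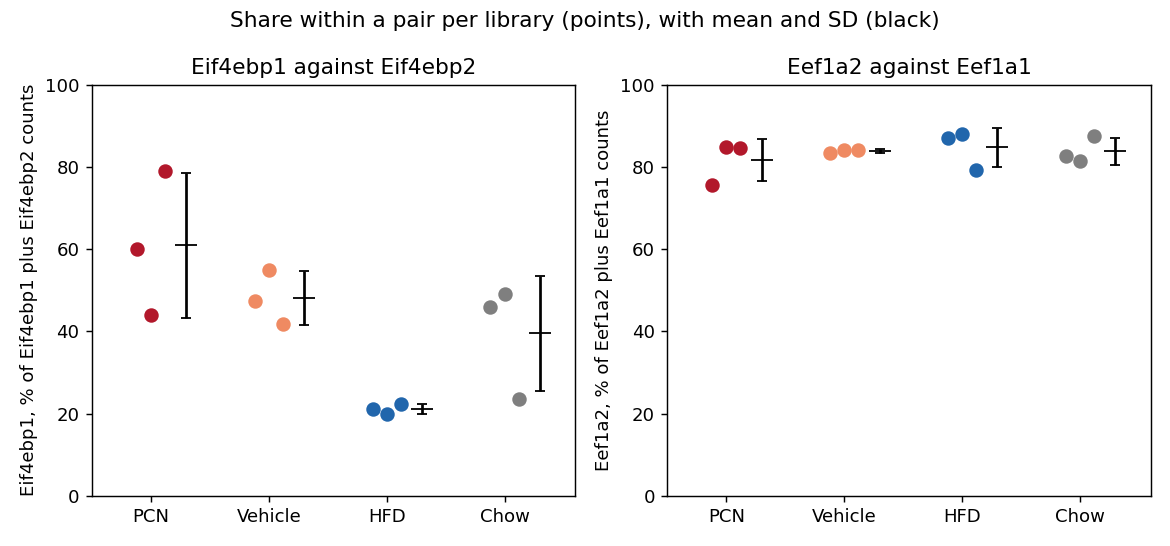
Share of Eif4ebp1 in the counts of Eif4ebp1 plus Eif4ebp2 (left) and of Eef1a2 in the counts of Eef1a2 plus Eef1a1 (right), in percent, for each library (points) with the mean and SD of 3 libraries per group (black). The HFD libraries lie at 19.8% to 22.3% on the left, with Chow 19 close to them at 23.5%, while the groups overlap on the right.

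Genes of the elongation machinery leaned upward in Vehicle. Eef1b2 (chr1:63176825-63180486, plus strand), which encodes the eEF1B subunit that exchanges GDP for GTP on eEF1A, had 49.2, 54.5 and 46.3 CPM in Vehicle, against 32.2, 36.3 and 31.8 CPM in HFD. The groups did not overlap, and the log2 fold change was 0.58 ± 0.12 (edgeR, adjusted p = 0.0499), just inside the threshold. That call was lost in 7 of 10 alternatives, which were DESeq2's size factors in edgeR and the 6 under which the calls of both 4E-binding protein genes ended. Eef1d, another exchange subunit, had 89.3, 88.0 and 81.5 CPM in Vehicle, against 62.8, 58.9 and 62.9 CPM in HFD. It was higher in each Vehicle library than in any HFD library, with a log2 fold change of 0.49 ± 0.12 that did not pass (edgeR, adjusted p = 0.0663). Eef2 had 1441, 1384 and 1149.5 CPM in Vehicle, against 1013, 996 and 895 CPM in HFD, with a log2 fold change of 0.45 ± 0.16 (edgeR, adjusted p = 0.184). Its groups did not overlap, although Vehicle 55 lay nearer to HFD than the other Vehicle libraries did. The eEF1A genes differed less than their errors, with log2 fold changes of 0.04 ± 0.16 for Eef1a2 and 0.14 ± 0.19 for Eef1a1, and Eef1g had 0.21 ± 0.14. Eef2k, the kinase that inactivates eEF2, had 0.17 ± 0.16, and Eif5a had 0.27 ± 0.15.

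**Figure D3:**
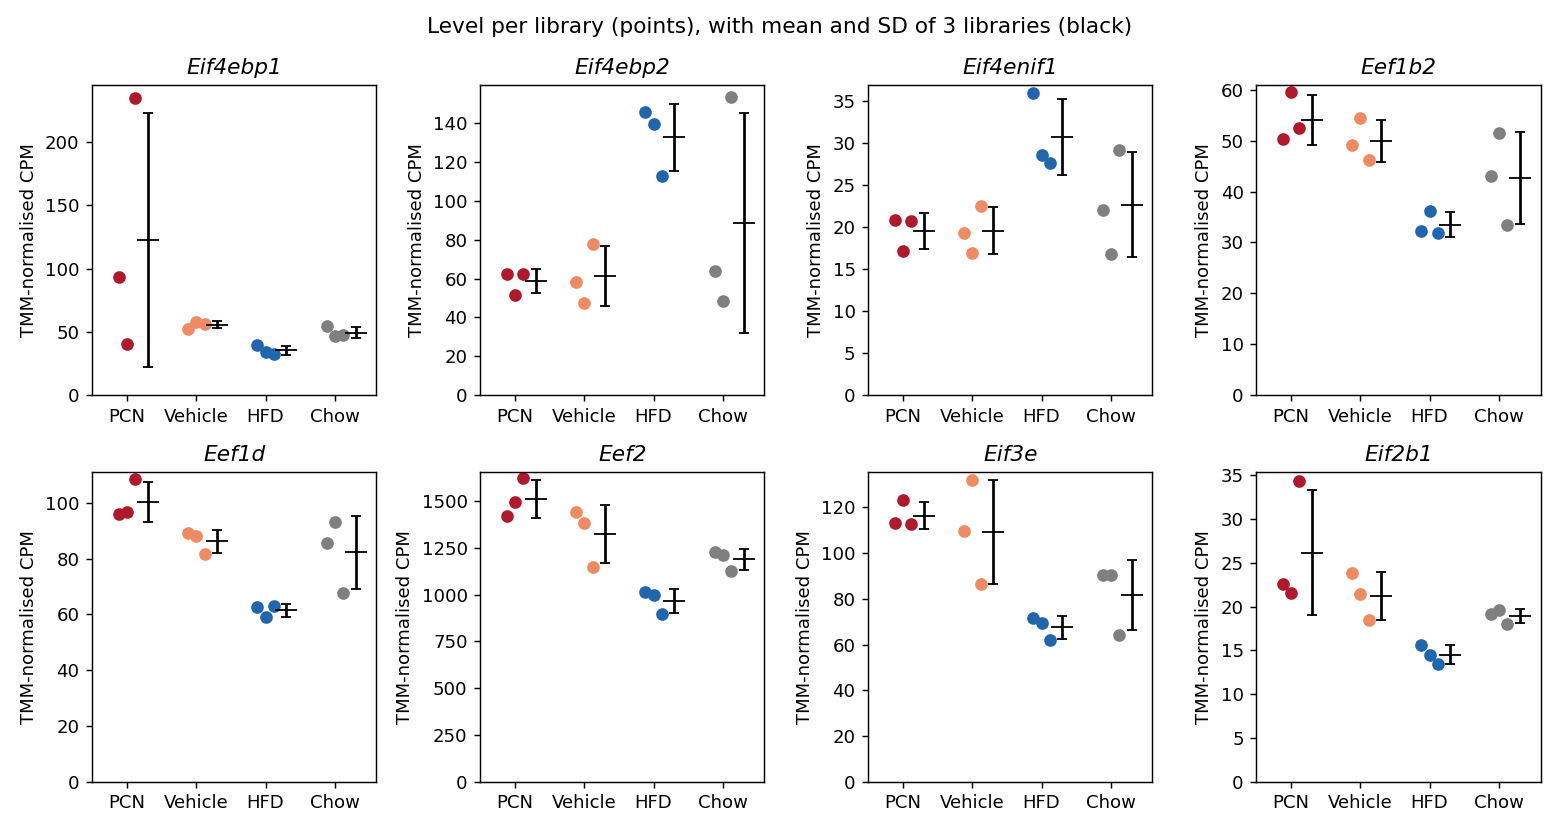
Level of 8 members in TMM-normalised CPM (vertical axes, from 0) for each library (points), with the mean and SD of 3 libraries per group (black), in the order PCN, Vehicle, HFD, Chow. For Eif4ebp2 and Eif4enif1 the 3 HFD points lie above all Vehicle points, and for the other 6 genes they lie below them.

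Among initiation factors, most eIF3 genes had higher fitted levels in Vehicle. Of the complex's 14 genes 12 did, 10 had every Vehicle library above every HFD library, and 8 had an unadjusted p under 0.05, but 0 of 14 passed the adjusted threshold. Over all members, 23 of 66 (34.8%) lay wholly above, against 12.1% of all genes, and 7 (10.6%) wholly below, against 11.3%. Eif3e, a subunit gene of the complex, had 109.6, 132 and 86.6 CPM in Vehicle, against 71.5, 69.4 and 61.8 CPM in HFD. Its log2 fold change was 0.70 ± 0.16 (edgeR, adjusted p = 0.0642), and pseudogenes under an older name of Eif3e are among the dropped symbols, so shared reads are possible. Eif3k followed at 0.59 ± 0.16 (edgeR, adjusted p = 0.0888) and Eif3g at 0.41 ± 0.14 (edgeR, adjusted p = 0.168). The exceptions were the core subunit genes Eif3a at -0.02 ± 0.15 and Eif3b at -0.17 ± 0.11.

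The eIF2B genes and the kinases that act on eIF2 lay on opposite sides. All 5 eIF2B genes had higher fitted levels in Vehicle and 0 of 5 passed. Eif2b1, the alpha subunit gene, had 23.8, 21.4 and 18.4 CPM in Vehicle, against 15.6, 14.4 and 13.5 CPM in HFD. Its groups did not overlap, at 0.55 ± 0.14 on the log2 scale (edgeR, adjusted p = 0.0795), and Eif2b5, the catalytic epsilon subunit gene, had 0.29 ± 0.12. All 4 kinase genes had lower fitted levels in Vehicle and 0 of 4 passed. Eif2ak4, encoding the amino acid sensor GCN2, had 7.88, 7.11 and 6.78 CPM in Vehicle, against 9.62, 10.3 and 9.42 CPM in HFD, a log2 fold change of -0.43 ± 0.15. Its groups were apart, as were those of Eif2ak2, the double-stranded RNA sensor PKR, at -0.54 ± 0.20. Eif2ak1, the haem-regulated kinase, had -0.24 ± 0.15, and Eif2ak3, the endoplasmic reticulum stress kinase PERK, -0.11 ± 0.21. The eIF2 subunit genes Eif2s1, Eif2s2, Eif2s3x and Eif2s3y had 0.24 ± 0.12, 0.39 ± 0.17, -0.04 ± 0.13 and 0.21 ± 0.25.

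The eIF4F group was split, with 5 genes of 11 higher and 6 lower in Vehicle and 0 past the threshold. Eif4enif1, whose product carries eIF4E to the nucleus and to processing bodies, had 19.3, 16.9 and 22.5 CPM in Vehicle, against 36.0, 28.6 and 27.6 CPM in HFD. The Vehicle libraries all lay below the HFD libraries, at -0.65 ± 0.15 on the log2 scale (edgeR, adjusted p = 0.0653). The scaffold genes Eif4g1, Eif4g2 and Eif4g3 had -0.18 ± 0.15, -0.34 ± 0.15 and -0.40 ± 0.18. Eif4e had 0.36 ± 0.14, Eif4b 0.50 ± 0.18, Eif4a1 0.22 ± 0.13 and Eif4a2 0.25 ± 0.13. The value was -0.23 for Eif4g3 without HFD 4 and 0.24 for Eif4e without Vehicle 23. Of the genes that share the family name but serve elsewhere, Eif6, whose product keeps the large ribosomal subunit from joining early, had 0.49 ± 0.14 (edgeR, adjusted p = 0.105) and the exon junction helicase gene Eif4a3 had 0.15 ± 0.14.

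**Figure D4:**
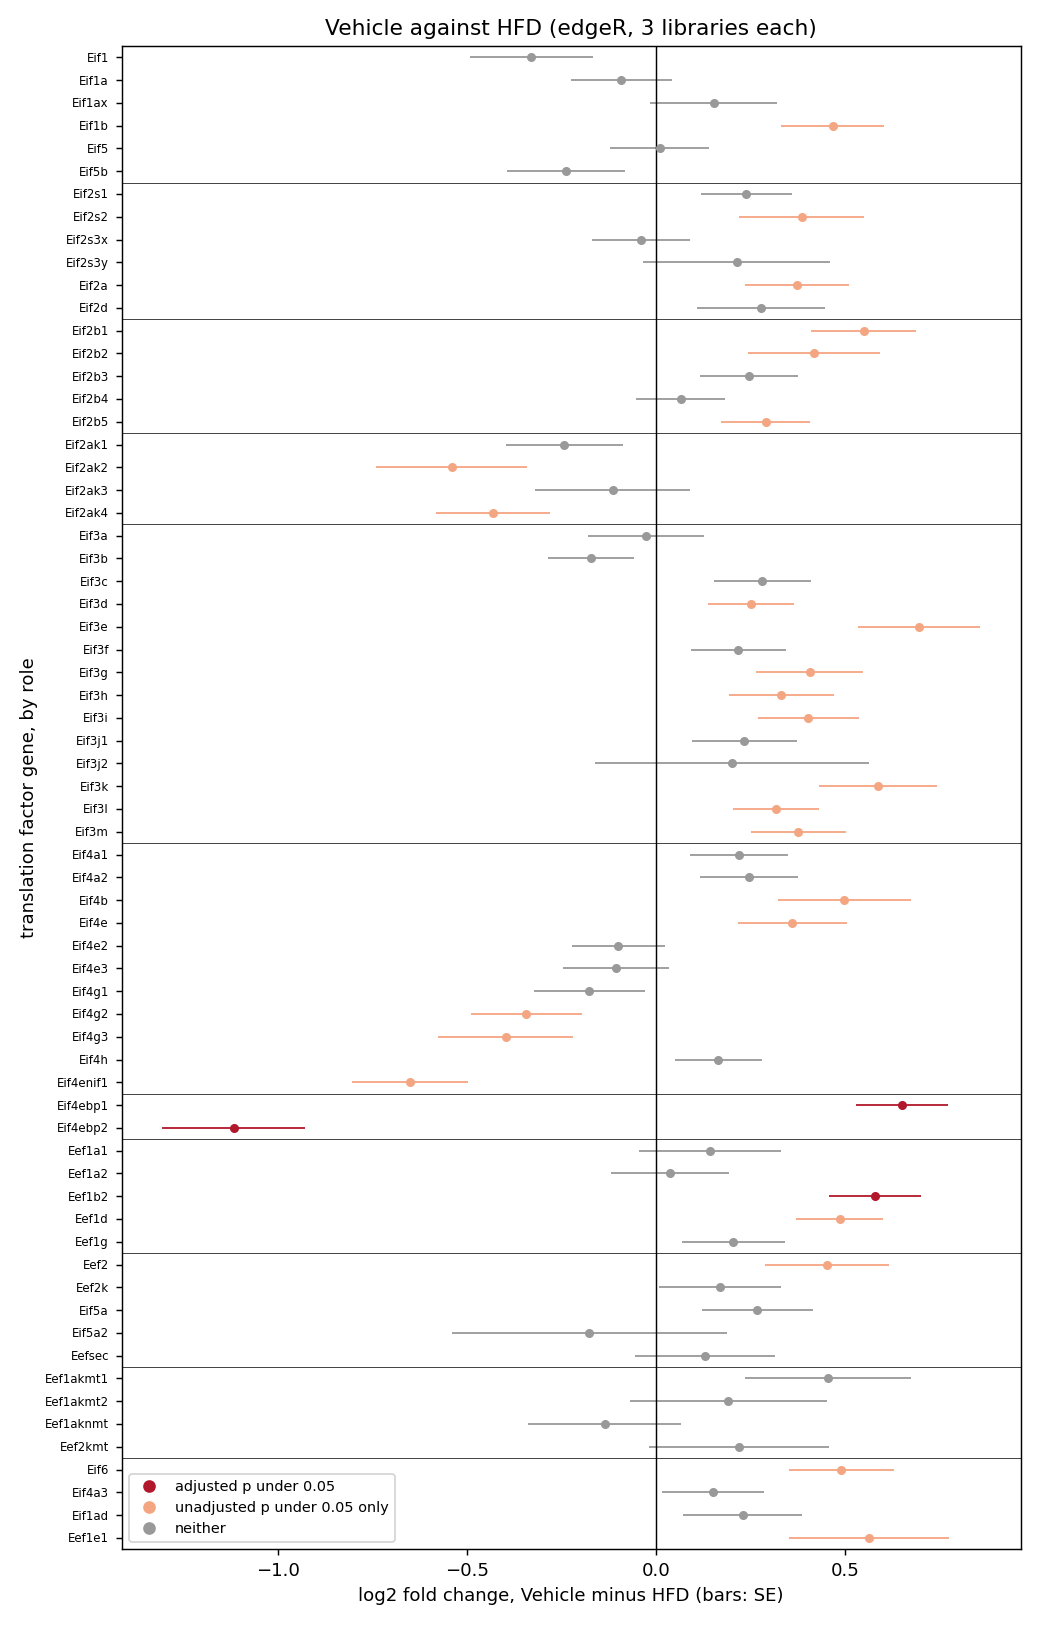
Log2 fold change of Vehicle minus HFD (horizontal axis) with its SE (bars) for the 66 tested members, grouped by role, in red where the adjusted p was under 0.05 and in orange where the unadjusted p alone was. Eif4ebp2 lies furthest to the left at -1.12, all 4 eIF2 alpha kinase genes lie left of 0, and 12 of 14 eIF3 genes lie right of 0.

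At an unadjusted p under 0.05, 22 members were higher in Vehicle (33.3%), against 8.66% of all genes, and 6 were lower (9.09%), against 9.17% of all genes. These 28 members (42.4%, against 17.8% of all genes) became 12 (18.2%, against 11.4%) without HFD 30, 13 (19.7%, against 10.9%) without Vehicle 23 and 15 (22.7%, against 13.7%) without Vehicle 15. The number of calls rested on the libraries and the tool. Without Vehicle 55 it was 16 of 66 members (24.2%), where 1180 of 13033 genes (9.05%) were called. Without any 1 of the other 5 libraries it was 0 members, where 0 genes (without Vehicle 23 or HFD 30) to 48 genes (without HFD 38) were called in all. DESeq2 called 9 of the 58 members to which it gave an adjusted p (15.5%), and 618 of 7792 such genes (7.93%). With no expression filter edgeR called 8 of 68 members (11.8%) and 571 of 21595 genes (2.64%), and with all 12 libraries in 1 fit it called 0 members and 0 genes. Markers of other cells differed alongside. The fibroblast and matrix list summed to 450.4 to 560.4 CPM in Vehicle, against 613 to 1130 CPM in HFD, with 7 of its 8 genes lower and 1 past the threshold. The satellite cell and myoblast list, 4 genes, summed to 15.1 to 20.3 CPM in Vehicle, against 9.08 to 11.9 CPM in HFD, with 2 of 3 tested genes higher and 0 past. The red blood cell list summed to 44.7 to 215 CPM in Vehicle, against 49.0 to 60.2 CPM in HFD, with 5 of 5 genes higher in Vehicle (median log2 fold change 1.07). The adipocyte list summed to 102 to 336 CPM in Vehicle, against 107 to 511 CPM in HFD, with 7 of 7 genes lower in Vehicle (median -0.35). Of the macrophage genes 7 of 9 were lower in Vehicle (median -0.28), with sums of 48.2 to 96.6 CPM in Vehicle, against 50.8 to 129.97 CPM in HFD, and of the endothelial genes 4 of 5 were lower (median -0.037), with sums of 89.9 to 135 CPM in Vehicle, against 102 to 135 CPM in HFD. The sums of these 4 lists overlapped between the groups, and 0 of their genes had an unadjusted p under 0.05. The red blood cell sum of 215 CPM was that of Vehicle 55, against 44.7 and 74.7 CPM in Vehicle 15 and Vehicle 23. HFD 38 held the highest HFD sums of the fibroblast and matrix, adipocyte and macrophage lists (1130, 511 and 129.97 CPM). The 3 slow-fibre genes held for all libraries summed to 16.6 to 68.8 CPM in Vehicle, against 21.2 to 40.6 CPM in HFD. Of them 2 were higher in Vehicle (median 0.096), with 0 at an unadjusted p under 0.05. The part of these cells in the translation factor results was not tested.

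The comparison of HFD with Chow asks what the diet accompanies, and it shares its HFD libraries with the comparison above. Of 66 members tested 0 passed edgeR's adjusted threshold, as did 0.0% of 12686 genes. DESeq2 called 0 of 66 members and 44 of 12882 genes (0.342%), and edgeR with no expression filter called 0 of 68 members and 237 of 24093 genes (0.984%). At an unadjusted p under 0.05 there were 4 members (6.06%), against 7.7% of all genes. Of these, 1 was higher in HFD (1.52%, against 3.78% of all genes) and 3 were lower (4.55%, against 3.92%). The fitted level was higher in HFD for 26 of 66 members (50.1% of all genes), with a median log2 fold change of -0.067 over members and 0.00043 over all genes. Every HFD library lay below every Chow library for 11 members (16.7%, against 7.07% of all genes), 3 of them eEF1 genes, and above for 1 (1.52%, against 5.76%), Eif2ak4.

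Eif4ebp1 had the lowest p, with 39.2, 34.4 and 32.4 CPM in HFD, against 54.5, 46.4 and 47.2 CPM in Chow. The groups did not overlap, at -0.47 ± 0.13 on the log2 scale (edgeR, adjusted p = 0.539). Eif2b1, with 15.6, 14.4 and 13.5 CPM in HFD, against 19.1, 19.6 and 18.1 CPM in Chow, was also apart, at -0.37 ± 0.13. Eef1d had 62.8, 58.9 and 62.9 CPM in HFD, against 85.7, 93.2 and 67.8 CPM in Chow, at -0.40 ± 0.14, with Chow 19 nearest to HFD. Eif6 had -0.32 ± 0.15. On the other side stood Eif5b, the GTPase of subunit joining, at 0.39 ± 0.16, and Eif4enif1 at 0.45 ± 0.20. For both genes the groups overlapped. Of the Eif5b exons 16.8% overlap those of Rev1 on the opposite strand. The Eif4enif1 value was 0.26 without Chow 17 and 0.68 without Chow 19. The most abundant members had log2 fold changes of -0.28 ± 0.14 for Eef2, -0.16 ± 0.15 for Eef1a2, 0.21 ± 0.15 for Eif4g1 and 0.24 ± 0.18 for Eif4g2. All 5 eIF2B and all 5 eEF1 genes had lower fitted levels in HFD, with 0 past the threshold.

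Chow 19 stood apart from the other Chow libraries for Eif4ebp2. That gene had 146, 139 and 113 CPM in HFD, against 63.9, 48.2 and 154 CPM in Chow, where Chow 19 was above every HFD library. With all libraries its log2 fold change was 0.59 ± 0.42 (edgeR, adjusted p = 0.752). Without Chow 19 it was 1.26 (edgeR, adjusted p = 0.0192), the 1 member called then. In that fit 219 of 12933 genes (1.69%) were called, 25 of 66 members (37.9%) had an unadjusted p under 0.05, against 16.9% of all genes, and the members' median was -0.15. Slow-fibre genes summed to 53.1 to 92.8 CPM in HFD, against 66.5 CPM in Chow 8, inside the HFD range, and 749 and 790.2 CPM in Chow 17 and Chow 19. All 9 tested had lower fitted levels in HFD, 7 of them at an unadjusted p under 0.05. The red blood cell list summed to 49.0 to 60.2 CPM in HFD, against 69.9 to 136 CPM in Chow, with 5 of 5 genes lower in HFD and 4 at an unadjusted p under 0.05. Of the macrophage genes 8 of 9 were higher in HFD (median log2 fold change 0.45, 2 at an unadjusted p under 0.05), with sums of 50.8 to 129.97 CPM in HFD, against 48.4 to 87.4 CPM in Chow. Of the adipocyte genes 6 of 7 were higher in HFD (median 0.53), with sums of 107 to 511 CPM in HFD, against 66.7 to 299 CPM in Chow. Endothelial genes were lower in HFD in 4 of 5 cases (median -0.21, 2 at an unadjusted p under 0.05), with sums of 102 to 135 CPM in HFD, against 123 to 150.3 CPM in Chow. All 3 tested satellite cell and myoblast genes were lower in HFD (median -0.21, 1 at an unadjusted p under 0.05), and the list summed to 9.08 to 11.9 CPM in HFD, against 11.4 to 16.3 CPM in Chow. Of the fibroblast and matrix genes 6 of 8 were higher in HFD (median 0.21, 1 at an unadjusted p under 0.05), with sums of 613 to 1130 CPM in HFD, against 573 to 888 CPM in Chow. In these 5 lists 0 genes passed. The highest HFD sums of the macrophage, adipocyte and fibroblast and matrix lists were all those of HFD 38. The part of these cells in the results was not tested.

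The comparison of PCN with Vehicle asks what PCN adds to the injections, and its Vehicle libraries are those set against HFD. Of 67 members tested 0 passed edgeR's adjusted threshold, as did 0.0% of 12833 genes, and DESeq2 called 0. At an unadjusted p under 0.05 there was 1 member (1.49%), against 2.82% of all genes. It was higher in PCN, as were 1.35% of all genes, and 0 members were lower, against 1.47% of all genes. Without PCN 11 there were 8 such members (11.9%), against 7.59% of all genes, and without any 1 of the other 5 libraries there were 0 or 1. The fitted level was nonetheless higher in PCN for 53 of 67 members (79.1%), against 52.3% of all genes, and the median log2 fold change was 0.099 over members and 0.014 over all genes. All 14 eIF3, all 5 eIF2B and all 5 eEF1 genes had higher fitted levels in PCN. Every PCN library lay above every Vehicle library for 7 members (10.4%, against 4.21% of all genes) and below for 1 (1.49%, against 4.19%). The members' median was 0.036 without PCN 27 and 0.046 without Vehicle 55, and 0.108 to 0.155 without any 1 of the other 4 libraries.

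Eef1akmt4, a lysine methyltransferase gene named for eEF1A, had the lowest p, with 10, 10 and 23 counts in PCN, against 3, 9 and 4 counts in Vehicle. The groups were apart, with a log2 fold change of 1.40 ± 0.53 (edgeR, adjusted p = 0.998), and its exons overlap those of other genes. It passed the expression filter only through its PCN libraries, so its low p and its place among the members wholly higher in PCN are no evidence of a difference. Eif4ebp1 spread widely within PCN, with 93.4, 40.4 and 235 CPM in PCN, against 52.4, 57.7 and 56.2 CPM in Vehicle. PCN 11 lay below all Vehicle libraries and PCN 27 far above them, and the log2 fold change of 1.15 ± 0.59 was 0.28 without PCN 27. Eif2s1, the eIF2 alpha gene, had 51.4, 41.6 and 57.3 CPM in PCN, against 42.5, 40.7 and 37.1 CPM in Vehicle, at 0.32 ± 0.17, with overlap at PCN 11. Eif3g had 0.42 ± 0.23, Eif2b3 0.28 ± 0.16 and Eif3b 0.32 ± 0.18, and Eif4ebp2 had -0.06 ± 0.20. Without PCN 27 the log2 fold change was 0.10 for Eif3g and 0.13 for Eif3b. The fibroblast and matrix list summed to 328 to 536 CPM in PCN, against 450.4 to 560.4 CPM in Vehicle, with 8 of 8 genes lower in PCN, 2 at an unadjusted p under 0.05 and 0 past. The adipocyte list summed to 106 to 134 CPM in PCN, against 102 to 336 CPM in Vehicle, with 7 of 7 genes lower in PCN (median log2 fold change -1.20, 1 at an unadjusted p under 0.05, 0 past). All 5 red blood cell genes were also lower in PCN (median -0.62, 0 past), and summed to 63.1 to 76.3 CPM in PCN, against 44.7 to 215 CPM in Vehicle. The 215 CPM belonged to Vehicle 55, while Vehicle 15 and Vehicle 23 stood at 44.7 and 74.7 CPM. The 3 slow-fibre genes summed to 17.9 to 141 CPM in PCN, against 16.6 to 68.8 CPM in Vehicle, with PCN 5 the highest. All 3 were higher in PCN (median 0.56), with 0 at an unadjusted p under 0.05. The part of these cells in the translation factor levels was not tested.

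**Figure D5:**
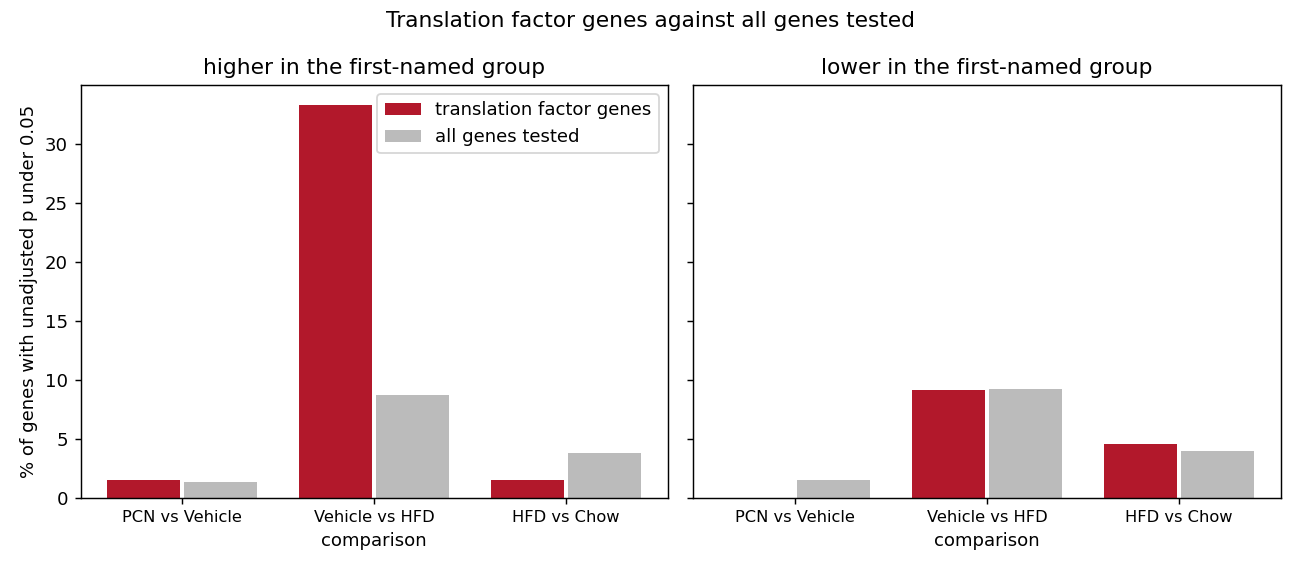
Percent of tested genes with an unadjusted p under 0.05 (vertical axis, from 0), higher (left) or lower (right) in the group named first, for the translation factor genes (red) and for all genes tested (grey) in each comparison. For Vehicle against HFD 33.3% of members were higher, against 8.66% of all genes, while 9.09% were lower, against 9.17%.

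Genes that act on the factors were followed in lists outside the family. Of the 27 genes of mTORC1 signalling to translation, Vehicle against HFD gave 1 that rose and 1 that fell, where 0.526% of all genes rose and 0.989% fell. Rps6, a ribosomal protein that S6 kinase phosphorylates, rose to 139 ± 12.2 CPM in Vehicle, against 90.0 ± 4.29 CPM in HFD (log2 fold change 0.62 ± 0.13; edgeR, adjusted p = 0.0464). Deptor, an inhibitor bound to mTOR, fell to 56.3 ± 7.85 CPM in Vehicle, against 92.2 ± 5.15 CPM in HFD (-0.71 ± 0.14; edgeR, adjusted p = 0.0424). Both calls were lost in the 6 alternatives that ended those of Eif4ebp1 and Eif4ebp2. Castor2, of the arginine sensor family, had -0.91 ± 0.19 (edgeR, adjusted p = 0.0507), and the list's median was -0.0019. Of 22 other cytosolic translation factors tested 0 passed, with 13 higher and 9 lower in Vehicle and a median of 0.20. Larp1, an mTORC1-dependent repressor of ribosomal protein mRNAs, had -0.76 ± 0.16 (edgeR, adjusted p = 0.0507). The poly(A)-binding protein gene Pabpc1 had -0.49 ± 0.14 and Denr 0.45 ± 0.14. Of 19 genes of the integrated stress response 0 passed, with 7 higher and 12 lower in Vehicle and a median of -0.075. Atf4, the main transcription factor of that response, had 0.35 ± 0.13, Vldlr -0.34 ± 0.18 and Chac1 -0.28 ± 0.22. In HFD against Chow and in PCN against Vehicle, 0 genes of these lists passed.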

How the data were processed

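Muscle RNA was sequenced in 12 libraries, and the authors deposited raw read counts per Ensembl gene in a table of HFD and Chow and another of PCN and Vehicle, with 24093 and 24453 genes. HISAT2, HTSeq and DESeq2, with builds GRCm38 and mm10, are listed in the submitters' processing notes. The sources used here give neither versions nor the strand setting of the counting, so genes that overlap on either strand may share reads. Exons of 14 members overlap those of another tested gene.

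Groups came from the labels. Counts were fitted with edgeR 4.0.16 (R 4.3.3, limma 3.58.1): TMM, filterByExpr at a minimum count of 10, the quasi-likelihood F test with robust dispersion, Benjamini-Hochberg adjustment over all genes tested and a threshold of 0.05. Each comparison used its own 6 libraries, and Vehicle against HFD used the 21976 genes in both tables. The SE is the absolute log2 fold change over the square root of F. Eif4ebp3 did not pass the filter in any comparison or over the 4 groups. Eef1akmt4 did not pass it in HFD against Chow and in Vehicle against HFD. Library pairs of a group differed beyond sampling noise (chi-square per gene 19.6 to 108), so none was taken for repeat deposits of 1 library, which does not show that they are independent animals. The fits were run on simulated counts as a check of the code. Those counts were drawn independently for each gene and library, with changes larger than most of those named here. They do not gauge the fits for smaller changes or for shifts that many genes share in a library.

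Alternatives were DESeq2 1.42.0, its size factors, no filter, all 12 libraries in 1 fit and each library left out. Members, lists, roles and motifs were chosen with earlier results of these data known. Members named with values are the 6 lowest in p in each comparison and over the 4 groups, the 4 most abundant and a set of core factors, and of each list outside the family at most 3. Coordinates are those of the tables, 1-based, and 65 of 68 match GENCODE M21, from which exon lengths were taken.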

Additional observations from a re-analysis of the deposited data

How the results depend on the processing

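No paired analysis was possible because each library number occurs in 1 group only. For Vehicle against HFD, 3 members and 193 genes in all passed, against 9 members and 618 genes with DESeq2, 8 and 571 with no expression filter, 2 and 182 with DESeq2's size factors in edgeR (without Eef1b2), 0 and 0 with all 12 libraries in 1 fit, and 0 to 16 members and 0 to 1180 genes when 1 library was left out. For any difference among the 4 groups 0 members and 24 genes passed, against 10 and 771 with DESeq2, 1 and 185 with no filter, and 0 to 2 members and 3 to 216 genes when 1 library was left out. For HFD against Chow, leaving out 1 library gave 0 to 1 calls and medians of -0.15 to -0.047. The Eef1a2 share in Vehicle was 86.2% per kilobase of exon. The causes were not tested. Over the 6, 6 and 28 genes followed in HFD against Chow, PCN against Vehicle and Vehicle against HFD, 0 of 60, 0 of 60 and 0 of 280 refits turned a direction. In the last comparison 19 refits lost a call and 22 gained one. These genes were followed for their low p in the same data, and the refits reuse most or all of the same libraries. A turned direction was therefore unlikely from the start, and its absence is no evidence for the directions. Genes under 1 CPM, such as Eif4ebp3 with 1 to 11 counts per library, allow no firm comparison at this depth.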

Other observations

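Genes that charge tRNAs leaned the same way as the factors. Of 21 tested genes of cytosolic aminoacyl-tRNA synthetases and their scaffold, 20 had a higher fitted level in Vehicle than in HFD. Of all genes 49.9% did. In PCN against Vehicle, which shares the Vehicle libraries, 18 were higher in PCN, as were 52.3% of all genes. The medians were 0.16 and 0.18 on the log2 scale, and 0 passed edgeR's adjusted threshold in either comparison. In HFD against Chow 16 of the 21 had a lower fitted level in HFD (median -0.098, 0 past), where 50.1% of all genes were higher. The list summed to 1455 to 1791 CPM in PCN and 1325.5 to 1493 in Vehicle. The sums were 1171.5 to 1378 CPM in HFD and 1254 to 1473 in Chow, so the groups overlapped in each of these comparisons. The exception in Vehicle against HFD was Iars, the isoleucyl-tRNA synthetase gene, at 66.2 ± 6.08 CPM in Vehicle and 86.7 ± 11.2 CPM in HFD (SD, n = 3 each).

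The 11 genes of mitochondrial translation factors summed to 281 to 334 CPM in PCN, 278 to 332 in Vehicle, 285 to 311 in HFD and 309 to 354 in Chow, and 0 passed in any of the 3 comparisons. Mrrf, which encodes the mitochondrial ribosome recycling factor, had 14.3 ± 1.77 CPM in PCN, against 10.5 ± 0.985 CPM in Vehicle (log2 fold change 0.45 ± 0.17; edgeR, adjusted p = 0.998), and -0.26 ± 0.17 in Vehicle against HFD (edgeR, adjusted p = 0.494).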
